A study of Homo sapiens with 2 samples.

Results

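The mitochondrial carriers and VDAC porins described here are 8 nuclear genes, chosen by Ensembl ID from the 57820 IDs of a table of ribosome footprint counts. The carriers of the inner membrane, SLC25A1, SLC25A3, SLC25A4, SLC25A5 and SLC25A6, number 5 and stand beside the outer-membrane porins VDAC1, VDAC2 and VDAC3. All 8 IDs occur in the table and 7 of the 8 had a count above 0 in both libraries. The cells were HEK293, a long-established line from human embryonic kidney, and the assay was ribosome profiling, which sequences the mRNA fragments that ribosomes shield from RNase I. Both libraries were made from cells kept for 12 h in DMSO vehicle, as replicate 1 from batch 1 and replicate 2 from batch 2. There is 1 group and no treated sample, so genes are compared inside each library, and the 2 libraries are set against each other. Nothing in the labels says that the libraries came from separate cultures, so the spread between them may be partly technical. Each batch holds 1 library, so batch cannot be told apart from replicate.

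Metabolites cross the mitochondrial boundary in stages. VDAC proteins are beta-barrel pores that let small solutes through the outer membrane. Carriers of the SLC25 family then exchange specific substrates across the inner membrane, among them the ADP, ATP and phosphate on which ATP synthesis depends. All of these proteins are made by cytosolic ribosomes and imported afterwards, so footprints on their mRNAs report synthesis in the cytosol.

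Replicate 1 held 865838 counts and replicate 2 held 611266 counts, so a single count equals 1.15 CPM in replicate 1 and 1.64 CPM in replicate 2, where CPM is a gene's count per 1000000 counts in its library. The 2 highest IDs of the table took 17.6% of replicate 1 and 23.2% of replicate 2. A gene listed at 0 could still have had up to 3 counts, which is 3.46 CPM in replicate 1 and 4.91 CPM in replicate 2. Intervals are exact and at 95%. They and these limits cover counting error only, and fragments copied by PCR and read without molecular identifiers need not be separate molecules. The table holds IDs without names or lengths, and no coding lengths were used here. Values are therefore counts per gene and not levels per length, and a difference between genes may include length. The ADP/ATP carriers resemble each other closely in coding length, as do the VDAC porins. More mRNA and more ribosomes on each mRNA cannot be told apart in footprint counts.

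The ADP/ATP carriers SLC25A4, SLC25A5 and SLC25A6 encode closely similar proteins and have separate promoters. SLC25A5 had the highest mean CPM of the 8 genes, and SLC25A6 was listed at 0, which is not read here as a level. Whether the promoters bear on these counts was not tested. The 150 bases before each annotated start are shown because these windows tell the paralogs apart. Protein sequences were not compared here. They come from RefSeq on GRCh38.p14, whereas the counts were made on hg19. The windows lie at chr4:185143116-185143265 on the plus strand for SLC25A4, chrX:119468294-119468443 on the plus strand for SLC25A5, and chrX:1392114-1392263 on the minus strand for SLC25A6. Capitals mark matches, on either strand, to the TATA box core (TATAA), to the sequence of a CAAT box (CCAAT) and to that of a GC box (GGGCGG). No match overlaps another.
SLC25A4: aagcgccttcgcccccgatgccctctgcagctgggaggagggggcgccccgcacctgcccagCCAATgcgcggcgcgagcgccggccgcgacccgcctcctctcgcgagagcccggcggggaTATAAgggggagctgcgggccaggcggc
SLC25A5: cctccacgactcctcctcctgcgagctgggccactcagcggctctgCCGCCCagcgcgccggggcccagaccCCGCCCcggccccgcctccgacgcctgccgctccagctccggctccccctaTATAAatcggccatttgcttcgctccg
SLC25A6: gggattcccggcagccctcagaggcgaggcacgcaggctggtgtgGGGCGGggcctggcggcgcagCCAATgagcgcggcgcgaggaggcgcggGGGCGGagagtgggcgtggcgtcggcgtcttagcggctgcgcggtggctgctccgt

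TATAA began 28 bases before the start of SLC25A4 and 27 bases before that of SLC25A5, and was not among the letters of the SLC25A6 window. CCAAT began 88 bases before the start of SLC25A4 and 84 bases before that of SLC25A6. GGGCGG was found 2 times each in the SLC25A5 and SLC25A6 windows. Of 35116 RefSeq promoter windows of the same length, 12.1% held the TATA box core, 23.5% the CAAT box and 36.8% the GC box. These matches describe the sequence, and footprint counts do not measure promoter use.

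SLC25A5 (ENSG00000005022.5), the ADP/ATP carrier typical of proliferating cells, had the highest mean CPM of the 8 genes. It had 193 counts in replicate 1 and 199.5 in replicate 2. That is 223 CPM (interval 193 to 257) in replicate 1 and 326 CPM (283 to 376) in replicate 2, a mean of 275 ± 73.2 CPM (SD, n = 2). It ranked 502 among all IDs by mean CPM and lay above 97.0% of the 16465 IDs with any count. The IDs nearest to it in mean CPM were ENSG00000115486.7 above, at 275 CPM, and ENSG00000111669.10 below, at 273 CPM; neither could be named here.

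SLC25A4 (ENSG00000151729.6), the paralog that predominates in heart and skeletal muscle, had 24 counts in replicate 1 and 27 in replicate 2. In CPM this was 27.7 (17.8 to 41.2) in replicate 1 and 44.2 (29.1 to 64.3) in replicate 2. SLC25A4 lay far below SLC25A5 in both libraries, and the ranges of the genes did not overlap. The count of SLC25A5 was 8.04 times that of SLC25A4 (interval 5.25 to 12.9) in replicate 1 and 7.39 times (4.94 to 11.5) in replicate 2. Within the family SLC25A5 held 88.9% (84.0 to 92.8) of 217 counts in replicate 1 and 88.1% (83.2 to 92.0) of 226.5 counts in replicate 2. SLC25A4 held 11.1% (7.22 to 16.0) and 11.9% (7.99 to 16.8) in the same libraries. Because SLC25A6 was listed at 0, these shares and intervals divide the counts of SLC25A5 and SLC25A4 only. That 0 is not read as a level, so they are not shares of all ADP/ATP carrier footprints. The split between SLC25A5 and SLC25A4 thus differed between the libraries by less than counting error. The family as listed held 0.0251% of all counts in replicate 1 and 0.0371% in replicate 2.

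SLC25A6 (ENSG00000169100.8), an ADP/ATP carrier found in most tissues, was listed at 0 in both libraries. Against the family total, 0 of 217 counts allows a share of up to 1.38% in replicate 1 and 0 of 226.5 allows up to 1.32% in replicate 2, taking 3 counts as the limit. The upper ends of the exact 95% intervals, which are the bars of the plots, were somewhat higher, at 1.69% and 1.61%. These limits hold only if its fragments could be counted. SLC25A6 lies in a pseudoautosomal region, where X and Y carry the same sequence, and the table has a second ID for it that begins with ENSGR, the prefix of such Y copies. The second ID was also at 0. The table holds 47 ENSGR IDs, and 0 of these 47 and 0 of their 47 partner IDs had a count in either library. Of all 57820 IDs, 28.5% had a count in either library. In RefSeq, the X and Y promoter entries of SLC25A6 had 300 of 300 bases in common, and all 19 promoter entries found at the same place on both chromosomes, from 16 genes, were identical. Entries were matched by gene and position, so this identity describes the reference sequence and measures nothing in the libraries. How the authors treated fragments with more than 1 place in the genome is not given in the sources used here, so its part in the 0 was not tested. The 0 is not read here as a level of SLC25A6, and no ratio to its paralogs is given.

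SLC25A3 (ENSG00000075415.8), which brings phosphate and copper into the matrix, had 226.5 counts in replicate 1 and 154 in replicate 2. Its CPM was 262 (interval 228 to 297) in replicate 1 and 252 (214 to 295) in replicate 2, a mean of 257 ± 6.83 (SD, n = 2). This was the closest agreement among the 7 genes above 0, with a coefficient of variation of 2.66% by library size and 2.71% after TMM scaling, also the lowest of the 7. The counting interval in each library is far wider than the gap between the 2 values, so this closeness is descriptive only. SLC25A3 and SLC25A5, the carriers of phosphate and of ADP and ATP, were the only members above 200 CPM. Their order was not the same in both libraries. SLC25A5 had 0.852 times the count of SLC25A3 in replicate 1 (interval 0.701 to 1.04) and 1.30 times in replicate 2 (1.05 to 1.61). Their CPM ranges overlap, so they do not differ beyond the spread between libraries.

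SLC25A1 (ENSG00000100075.5), which exports citrate for fatty acid and sterol synthesis, had 62 counts in replicate 1 and 27 in replicate 2. This is 71.6 CPM (interval 54.9 to 91.8) in replicate 1 and 44.2 CPM (29.1 to 64.3) in replicate 2. Its coefficient of variation over the libraries was 33.5% and that of SLC25A4 was 32.4% by library size, against 28.4% and 37.4% after TMM scaling, so the order of these 2 genes depends on the scaling. SLC25A1 had 2.58 times the count of SLC25A4 in replicate 1 (1.59 to 4.33), and the 2 genes had the same count in replicate 2.

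VDAC1 (ENSG00000213585.6), the porin known to dock hexokinase at the outer membrane, had 80 counts in replicate 1 and 46 in replicate 2. VDAC3 (ENSG00000078668.9), a porin known for redox-sensitive cysteines, had 73 and 61 counts in the same libraries. VDAC1 thus stood at 92.4 CPM (interval 73.3 to 115) in replicate 1 and 75.3 CPM (55.1 to 100.4) in replicate 2, and VDAC3 at 84.3 CPM (66.1 to 106) and 99.8 CPM (76.3 to 128). Neither library separated the genes: VDAC3 had 0.912 times the count of VDAC1 in replicate 1 (0.655 to 1.27) and 1.33 times in replicate 2 (0.890 to 1.99). Of the VDAC counts, VDAC1 held 51.6% (43.5 to 59.7) in replicate 1 and 42.6% (33.1 to 52.5) in replicate 2. VDAC3 held 47.1% (39.0 to 55.3) and 56.5% (46.6 to 66.0).

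VDAC2 (ENSG00000165637.9), the porin that recruits the apoptosis effector BAK to mitochondria, had 2 counts in replicate 1 and 1 in replicate 2. These counts lie under the 3 counts that a count of 0 allows. VDAC2 held 1.29% of the VDAC counts in replicate 1 (0.157 to 4.58) and 0.926% in replicate 2 (0.0234 to 5.05). The count of VDAC1 was 40.0 times that of VDAC2 in replicate 1 (10.7 to 336) and 46.0 times in replicate 2 (7.85 to 1856). The interval in each library excludes equal counts of VDAC1 and VDAC2. RefSeq names 5 pseudogenes for VDAC2, 13 for VDAC1 and 1 for VDAC3. Their IDs could not be found in the table without names, so whether fragments of VDAC2 were counted elsewhere, or left out as matching several places, was not tested.

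**Figure D1:**
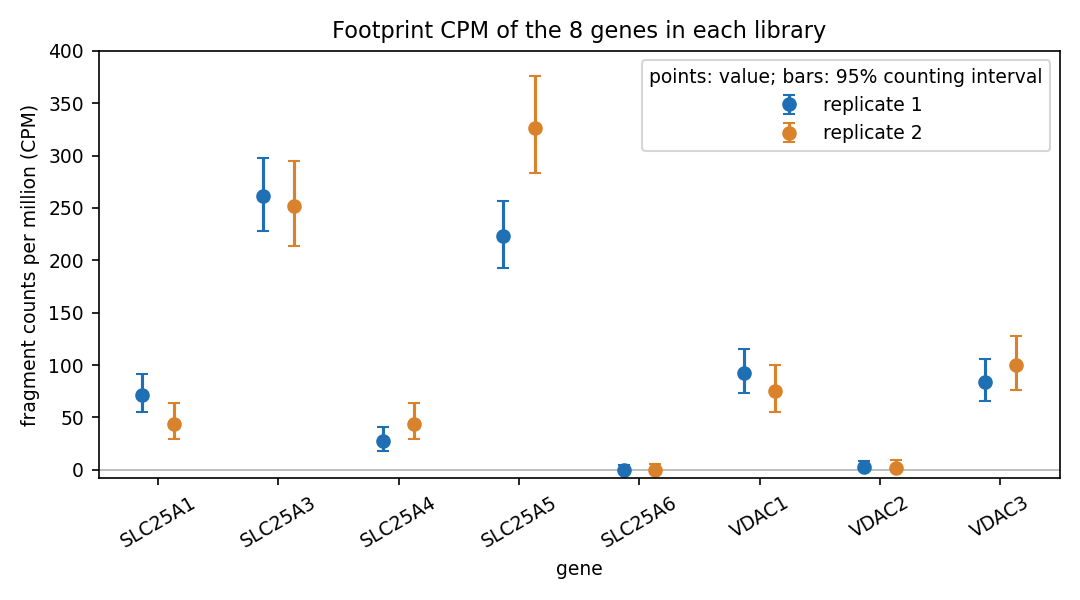
Footprint CPM (vertical axis) of the 8 genes in replicate 1 (left point of each pair, blue) and replicate 2 (right, orange), with 95% exact counting intervals as bars and 1 library per point. SLC25A3 and SLC25A5 lie between 223 and 326 CPM, SLC25A1, SLC25A4, VDAC1 and VDAC3 between 27.7 and 99.8 CPM, and VDAC2 and SLC25A6 at or near 0. The 0 of SLC25A6 is not read as a level.

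**Figure D2:**
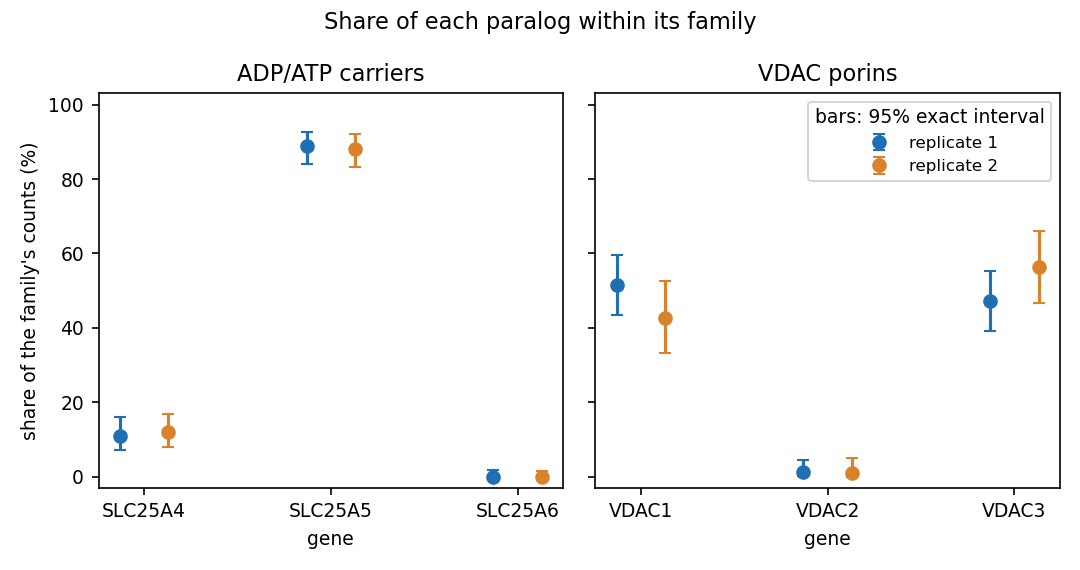
Share of each paralog (vertical axis, percent) in the counts of the ADP/ATP carriers (left panel) and of the VDAC porins (right panel), for replicate 1 (blue) and replicate 2 (orange), with 95% exact intervals as bars. SLC25A5 holds 88.9% and 88.1% of its family's counts, which are those of SLC25A5 and SLC25A4 only, as SLC25A6 was listed at 0. VDAC1 and VDAC3 overlap, and VDAC2 holds 1.29% and 0.926%.

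In order of mean CPM the genes ran SLC25A5, SLC25A3, VDAC3, VDAC1, SLC25A1, SLC25A4 and VDAC2. SLC25A6 was listed at 0, which is not read as a level and gives it no place in this order. Mean CPM was 92.1 ± 10.9 for VDAC3, 83.8 ± 12.1 for VDAC1, 57.9 ± 19.4 for SLC25A1, 35.9 ± 11.6 for SLC25A4 and 1.97 ± 0.477 for VDAC2 (SD, n = 2 for each). Among neighbours in this order above 0, the ranges over both libraries overlapped for SLC25A5 and SLC25A3, for VDAC3 and VDAC1, and for SLC25A1 and SLC25A4. They lay apart for SLC25A3 and VDAC3, for VDAC1 and SLC25A1, and for SLC25A4 and VDAC2. With 2 libraries a range is set by single values, so VDAC1 and SLC25A1, at 75.3 and 71.6 CPM on their near sides, were separated only narrowly. The count of VDAC1 was 1.29 times that of SLC25A1 in replicate 1 (0.915 to 1.83), an interval that includes equal counts. In replicate 2 it was 1.70 times (1.04 to 2.85).

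Among the 16465 IDs with any count, the 6 genes with at least 20 summed counts lay above 77.0% (SLC25A4) to 97.0% (SLC25A5) of IDs by mean CPM. VDAC3 lay above 89.9% and VDAC1 above 89.0%. VDAC2 lay above only 22.6%, at rank 12592. SLC25A6 was tied with the other 41354 IDs at 0.

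**Figure D3:**
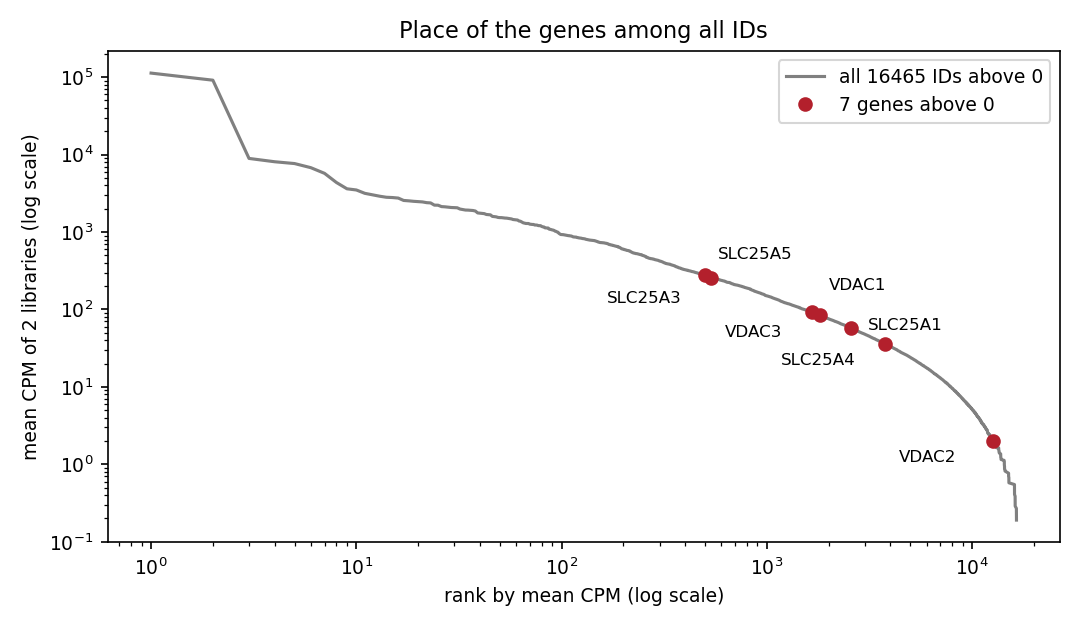
Mean CPM of both libraries (vertical axis, log scale) against rank (horizontal axis, log scale) for the 16465 IDs with any count (grey line), with the 7 genes above 0 as red points. SLC25A5 and SLC25A3 sit together near ranks 502 and 537, and VDAC2 sits at rank 12592.

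All 8 genes together held 660.5 counts, or 0.0763% (interval 0.0705 to 0.0823), of replicate 1 and 515.5 counts, or 0.0843% (0.0773 to 0.0920), of replicate 2. The carriers held 76.5% (73.1 to 79.7) of these in replicate 1 and 79.0% (75.3 to 82.5) in replicate 2, and the porins held the rest. These totals take SLC25A6 at 0, which is not read as a level, and VDAC2 at 2 counts in replicate 1 and 1 in replicate 2. They are therefore shares of the counts as listed, and the intervals do not cover fragments that could not be counted. The porins' share of all counts was nearly the same in both libraries, at 0.0179% (0.0152 to 0.0210) and 0.0177% (0.0145 to 0.0213). In percentage points the composition of the 8 differed most at SLC25A5, which held 29.2% (25.8 to 32.9) of their counts in replicate 1 and 38.7% (34.5 to 43.1) in replicate 2. As a ratio the share differed more for SLC25A1, at 9.39% (7.28 to 11.9) in replicate 1 and 5.24% (3.48 to 7.52) in replicate 2.

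Agreement between the libraries was read from the ratio of replicate 1 over replicate 2 after TMM scaling, for IDs with at least 100 summed counts. An ID was called where the 95% interval lay wholly beyond 2-fold. Of the 4 members with enough counts, SLC25A3, SLC25A5, VDAC1 and VDAC3, 0 were called; of all 2241 IDs, 18 were, or 0.803%. At that rate a count of 0 among 4 is near the background. With no p-value computed, the ratios compare these libraries and not conditions. SLC25A5 was lower in replicate 1, with a log2 ratio of -0.66 (-0.96 to -0.37), the only one of the 4 whose interval left out equal values. Among all 2241 IDs, 15.6% were higher in replicate 2 by an interval that left out equal values, and 37.9% differed in either direction. By size, 368 of the 2241 IDs (16.4%) lay at least as far from equal values as SLC25A5, and the median absolute log2 ratio of the 2241 was 0.30.

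SLC25A3 had a log2 ratio of -0.06 (-0.36 to 0.25), which turned to 0.05 (-0.25 to 0.36) when scaled by library size. VDAC1 had 0.19 (-0.35 to 0.74) and VDAC3 had -0.35 (-0.86 to 0.16). With fewer summed counts, SLC25A1 had 0.59 (-0.09 to 1.30; by library size 0.70, 0.02 to 1.41) and SLC25A4 had -0.78 (-1.64 to 0.07). The 6 genes with at least 20 summed counts lay within 2-fold (6 of 6), as did 84.2% of the 6958 IDs with as many counts and above 0 in both libraries. Their median absolute log2 ratio was 0.47, against 0.44 for all of these IDs.

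**Figure D4:**
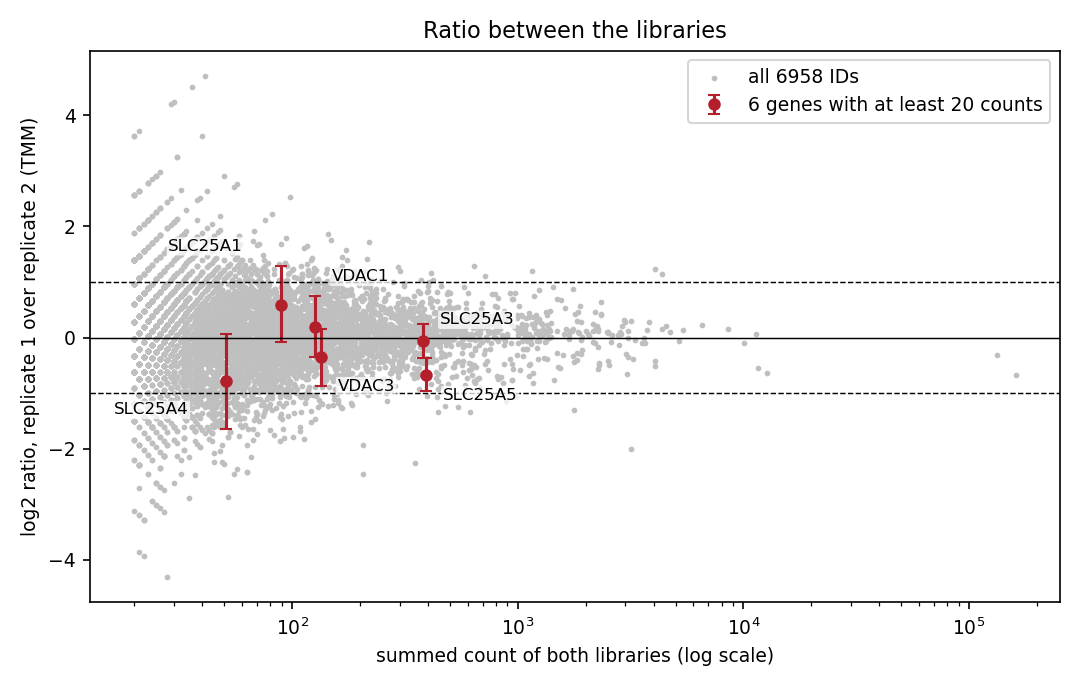
The log2 ratio of replicate 1 over replicate 2 after TMM scaling (vertical axis) against the summed count of both libraries (horizontal axis, log scale) for 6958 IDs (grey) and 6 of the 8 genes (red, with 95% exact counting intervals). Dashed lines mark 2-fold; the red points lie between -0.78 and 0.59, inside these lines, with SLC25A5 and SLC25A4 lowest.

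Ratios between members within a library do not depend on scaling. They were compared for SLC25A5, the highest of the 8, and no share over pairs of other IDs was computed, so they are given as values only. The count of SLC25A5 was 3.11 times that of SLC25A1 in replicate 1 (2.33 to 4.21) and 7.39 times in replicate 2 (4.94 to 11.5). Against VDAC1, SLC25A5 had 2.41 times the count in replicate 1 (1.85 to 3.17) and 4.34 times in replicate 2 (3.14 to 6.13). Against VDAC3 the values lay closer, at 2.64 times in replicate 1 (2.01 to 3.51) and 3.27 times in replicate 2 (2.45 to 4.44). Ratios to SLC25A3 and SLC25A4 are given above. In every library SLC25A5 exceeded SLC25A1, SLC25A4, VDAC1 and VDAC3 by an interval that left out equal counts. SLC25A5 was picked as the highest in these same libraries, so this order partly follows from the choice. SLC25A3 exceeded the same genes in this way too, for example VDAC1 by 2.83 times in replicate 1 (2.18 to 3.69) and 3.35 times in replicate 2 (2.39 to 4.76).

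SLC25A3 in replicate 1 and SLC25A5 in replicate 2 had a count that was not whole. So did 485 of the 2241 IDs with at least 100 summed counts, or 21.6%. In RefSeq on GRCh38.p14, SLC25A3 overlaps the small nucleolar RNA gene SNORA53, and SLC25A5 overlaps SLC25A5-AS1 on the opposite strand. Overlaps are also listed for members whose counts were whole: VDAC1 overlaps TCF7 and LOC124901069, and SLC25A6, at 0, overlaps LOC124900597. The strand setting of the counting is not given in the sources used here, so reads of SLC25A5 and of its antisense partner cannot be told apart. The ID next to SLC25A3 in the table, ENSG00000212443.1, had 83.5 and 31 counts in replicates 1 and 2, and the ID before SLC25A5, ENSG00000224281.4, had 4 and 0.5. Neither ID could be named here, and a division of fragments between neighbours was not tested. RefSeq also names 9 pseudogenes for SLC25A5, 6 for SLC25A6, 5 for SLC25A1, 3 for SLC25A3 and 0 for SLC25A4, so the counts of genes with such copies are uncertain to an extent not measured here.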

How the data were processed

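Ribosome-protected fragments were measured in 2 vehicle libraries of HEK293 cells. Per the labels, the deposited table gives counts of fragments of 27 to 29 nt per Ensembl ID. Because 15.2% of values above 0 in replicate 1 and 13.9% in replicate 2 differ from a whole number by more than 0.001, the authors' deposited values were taken here to be estimated counts. Per the submitters' processing notes, hg19 was the genome build. For the aligner, the counting tool, the annotation and the strand setting, the entry is: not given in the sources used here. Ribosomal RNA was not depleted, per the labels' protocols.

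For CPM and shares, deposited values were divided by each library's total (865838 and 611266), with exact Clopper-Pearson intervals. Ratios used values rounded to whole numbers, conditional exact binomial intervals, and edgeR's TMM factors (version 4.0.16, in R 4.3.3), computed on the 6965 IDs with at least 20 summed counts. With 1 group no p-value was computed. The scaling and ratio calls were run on simulated counts with counting error only and large planted differences. The intervals assume that same setting, so the run checks the code and not the spread between real libraries. Alternatives were scaling by library size or by DESeq2 (version 1.42.0), other limits, totals without the 2 highest IDs, each replicate left out and, chosen after seeing the data, IDs with non-whole counts left out.

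Members and gene lists were chosen with earlier results of these data known. All 8 members are named, with the IDs nearest to the highest member in mean CPM; the lowest, at 0, is tied. Other IDs named for their place in the table were chosen after their values were seen. Of the table's IDs, 0 occurred in the RefSeq table (59792 genes), so lists of other carriers, import factors, VDAC partners and HEK293 markers could not be applied; member symbols come from the list of IDs, and 8 of 8 matched RefSeq. The remaining steps ran in Python 3.11.15 with scipy 1.17.1, pandas 2.3.3 and numpy 2.4.6.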

Additional observations from a re-analysis of the deposited data

How the results depend on the processing

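Leaving the 2 highest IDs out of the totals raised the mean share of the 8 genes to 0.101%, against 0.0803% over all counts, which follows from the smaller total. Leaving out IDs with non-whole counts gave 0.0391%, because SLC25A3 and SLC25A5 are then lost. Without 1 library the share ran from 0.0763% to 0.0843%. The log2 ratio of SLC25A3 was 0.051 by library size, where the median of all IDs was 0.11 (0.0046 with TMM); the other 5 genes kept their direction. Calls over all IDs were 18 of 2241 (7 higher in replicate 1, or 38.9%, and 11 in replicate 2). By library size they became 11 higher in replicate 1 (61.1%) and 7 in replicate 2. They were 85 of 6965 IDs with at least 20 summed counts, 96 of 2241 at 1.5-fold and 11 of 2241 with 99% intervals. Of the members, 0 of 6 were called with at least 20 summed counts and 0 of 4 under the others. At such rates over all IDs, 0 calls among so few members is near the background. Values per coding codon, planned for each gene, for shares within families and for paralog ratios, were not run, since no coding lengths were used here. A ratio between the libraries cannot be had without either library. No paired analysis was possible because there is 1 group. Depth limits VDAC2, and SLC25A4 least precisely among the 6 genes with at least 20 summed counts.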
